A study of Mus musculus with 12 samples.

Results

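The activity-regulated immediate early genes are the genes that cells switch on first after synaptic activity or a growth signal. The 34 described here are Fos, Fosb, Fosl2, Jun, Junb, Jund, Atf3, Maff, Egr1, Egr2, Egr3, Egr4, Nr4a1, Nr4a2, Nr4a3, Npas4, Klf2, Klf4, Per1, Ier2, Ier3, Ier5, Btg2, Gadd45b, Arc, Bdnf, Homer1, Nptx2, Ptgs2, Dusp1, Dusp5, Dusp6, Sik1 and Trib1. They were chosen by symbol from what is known of the class, with earlier results of these data known, and all 34 were found among the 55359 genes counted. RNA was sequenced in bulk from the ventroposterior medial nucleus of the mouse thalamus (VPM), the relay of facial touch on its way to the cortex, on postnatal day 0. The groups were Ctrl ALBSF (upper lip territory of control pups), Ctrl PMBSF (whisker pad territory of control pups) and embWPC ALBSF (upper lip territory of pups given the treatment named embWPC, which the labels do not spell out). Each group had 4 libraries, and each library was a pool of 5 brains cut into 300 µm slices and microdissected, so a library averages over pups and slices. No embWPC library of the whisker pad territory was analysed here, and strain, sex and the interval from euthanasia to lysis are not given in the sources used here.

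Immediate early genes need no new protein synthesis to start: calcium entry and kinases of the ERK and CaM kinase pathways act on factors already bound to their promoters, chiefly CREB at cAMP response elements and SRF with its partners at CArG boxes. The first proteins made are mostly transcription factors, which go on to switch on later genes for synapses and growth, and phosphatases that shut the signal off again. In the developing thalamus, spontaneous activity runs through the relay nuclei before the whiskers are used, and these genes are commonly read as a record of recent activity. Tissue dissection and slicing can also induce them.

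The promoters of 5 members are shown because, in both territories, their level in the control library numbered 1 was the highest of the 4 or, for Gadd45b, the lowest, as described later. Each is the 250 bases before the RefSeq start (build GRCm38.p6), 5′ to 3′ on the gene's strand, with matches to the motifs searched in capitals. Fos lies at chr12:85473640-85473889 (plus strand), Egr2 at chr10:67537619-67537868 (plus), Dusp1 at chr17:26508473-26508722 (minus), Dusp6 at chr10:99262981-99263230 (plus) and Gadd45b at chr10:80929841-80930090 (plus).
Fos: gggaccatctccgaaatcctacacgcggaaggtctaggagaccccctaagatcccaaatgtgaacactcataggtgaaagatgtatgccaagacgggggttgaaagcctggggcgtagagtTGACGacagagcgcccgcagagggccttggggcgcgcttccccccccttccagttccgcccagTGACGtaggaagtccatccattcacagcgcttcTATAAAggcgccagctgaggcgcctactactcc
Egr2: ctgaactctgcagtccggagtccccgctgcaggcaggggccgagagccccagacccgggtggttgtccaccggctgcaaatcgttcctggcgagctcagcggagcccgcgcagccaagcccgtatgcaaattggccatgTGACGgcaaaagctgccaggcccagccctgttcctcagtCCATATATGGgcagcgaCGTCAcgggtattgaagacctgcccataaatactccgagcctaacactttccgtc
Dusp1: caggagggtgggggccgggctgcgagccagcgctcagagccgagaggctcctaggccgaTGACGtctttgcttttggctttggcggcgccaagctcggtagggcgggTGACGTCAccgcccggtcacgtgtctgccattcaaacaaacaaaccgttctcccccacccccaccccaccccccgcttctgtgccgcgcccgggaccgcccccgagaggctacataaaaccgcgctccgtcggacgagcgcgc
Dusp6: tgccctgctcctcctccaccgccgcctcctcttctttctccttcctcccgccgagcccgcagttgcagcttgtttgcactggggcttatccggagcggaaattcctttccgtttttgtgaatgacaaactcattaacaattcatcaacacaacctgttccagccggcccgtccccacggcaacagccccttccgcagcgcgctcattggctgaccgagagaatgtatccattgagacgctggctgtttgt
Gadd45b: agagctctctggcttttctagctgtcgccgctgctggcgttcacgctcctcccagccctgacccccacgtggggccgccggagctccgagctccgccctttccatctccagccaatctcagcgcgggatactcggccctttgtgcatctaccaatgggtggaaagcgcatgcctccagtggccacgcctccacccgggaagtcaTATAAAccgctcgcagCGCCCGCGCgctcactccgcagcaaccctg

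In Fos, the capitals mark cAMP response cores (TGACG) from base -129 and from base -66 and a TATA box (TATAAA) from base -33. Dusp1 held a full cAMP response element (TGACGTCA) from base -143, which contains the core on each strand, and a further core from base -191. Egr2 held a CArG box from base -72 between cores from bases -111 and -55. Gadd45b held a TATA box and an EGR site (GCGNGGGCG) on the other strand, and Dusp6 held none of the letters searched in this window. RefSeq promoters were matched for 27 of the 34 members, as 41 windows that ran on to 50 bases past the start. The members without one are Arc, Egr1, Egr3, Ier2, Nptx2, Sik1 and Trib1. The core, searched on both strands like all motifs, was in 58.5% of the 41 windows and in 20.8% of all 32851 mouse promoter windows. The full element was in 7.32% against 1.79%, in the windows of Btg2, Dusp1 and Maff. A CArG box was in 12.2% against 1.63%, in 4 overlapping or neighbouring windows of Egr2 and 1 of Dusp5. Counted by gene it was in 2 of 27 members, 7.41% against 1.81%. The EGR site was in 22% against 5.55%. The AP-1 site (TGANTCA), where the products of Fos and Jun bind, was in 2.44% against 7.81%, and the TATA box in 9.76% against 13.6%. A match is a description of the letters and not a measured binding site, and several members have more than 1 window, so the windows are not independent.

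Library totals ran from 28457046 to 34512840 counts. Slc17a6, the glutamate transporter of relay neurons, lay between 336 and 430 CPM (counts per 1000000 of the library size) in the 12 libraries, and Gad1, which marks inhibitory neurons, between 1.06 and 14.7 CPM. Markers of meningeal fibroblasts, 8 genes summed, reached 14.7 to 88.4 CPM in Ctrl PMBSF, against 17.1 to 18.4 in Ctrl ALBSF and 11.7 to 13.1 in embWPC ALBSF. Of the marker genes of 9 cell types, with 4 to 11 tested for each, edgeR called 3 between the control territories, where 1.62% of all genes were. Tcf7l2 and Sox10 were lower in Ctrl PMBSF, by -0.76 and -0.67 on the log2 scale, and Rora was higher by 0.39. The fit within control numbers, described later, called 5.04% of all genes and further markers. In it Sox9, Pdgfra, Olig2, Cspg4, Rgs5 and Hbb-bt were also lower, and Lum, Islr and Aldh1a2 higher. Summed markers of the oligodendrocyte lineage were 385 to 500 CPM in Ctrl ALBSF and 342 to 373 in Ctrl PMBSF. In embWPC ALBSF edgeR called 0 markers against either control group. DESeq2 called Rora higher and Aif1 and Hbb-bs lower against Ctrl ALBSF (170 of 17018 genes in all), and voom called Rora alone. Against Ctrl PMBSF DESeq2 called 5 of 8 meningeal markers lower (70 of 17018) and voom called 0. By sign, all tested markers of inhibitory neurons (7), microglia (9), meninges (8), erythroid cells (6) and choroid plexus (4) were lower than in Ctrl ALBSF. Those of the other cell types went both ways. The markers' part in the members' values was not tested. Mitochondrially encoded genes accounted for 1.72 to 3.45% of counts. In bulk tissue, fewer cells that express a gene and less RNA of it per cell cannot be told apart.

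Most of the members were quiet or moderate in newborn VPM. Together they took 0.0409 to 0.0542% of a library's counts, and their summed level was 411 to 527 CPM in Ctrl ALBSF, 420 to 459 in Ctrl PMBSF and 463 to 504 in embWPC ALBSF. The summed ranges of Ctrl ALBSF and the other groups overlap, and those of Ctrl PMBSF and embWPC ALBSF are parted by a small gap, 459 to 463 CPM. Abundant members weigh most in this sum, with means of 115 CPM for Dusp6 and 67.1 for Jund. Between those 2 groups 0 members were called, as described later. Compared per length, as mean CPM per kilobase of the canonical transcript over the 12 libraries, Dusp6 (40.6) and Jund (40.2) stood highest. Dusp1 (14.1), Gadd45b (13.5), Jun (11.9), Ier3 (11.8) and Ier2 (10.3) came next. Genes used as sharp reporters of neuronal firing were far lower on this scale, with 2.80 for Fos, 0.300 for Npas4, 0.190 for Arc and 0.0598 for Egr3. Fosb had 0 to 2 counts and Ptgs2 0 to 3 counts in a library, where a count of 0 allows up to 3 counts, or 0.0869 to 0.105 CPM. Both fell under the filter on low counts, which left 32 members among the 17501 genes tested.

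**Figure D1:**
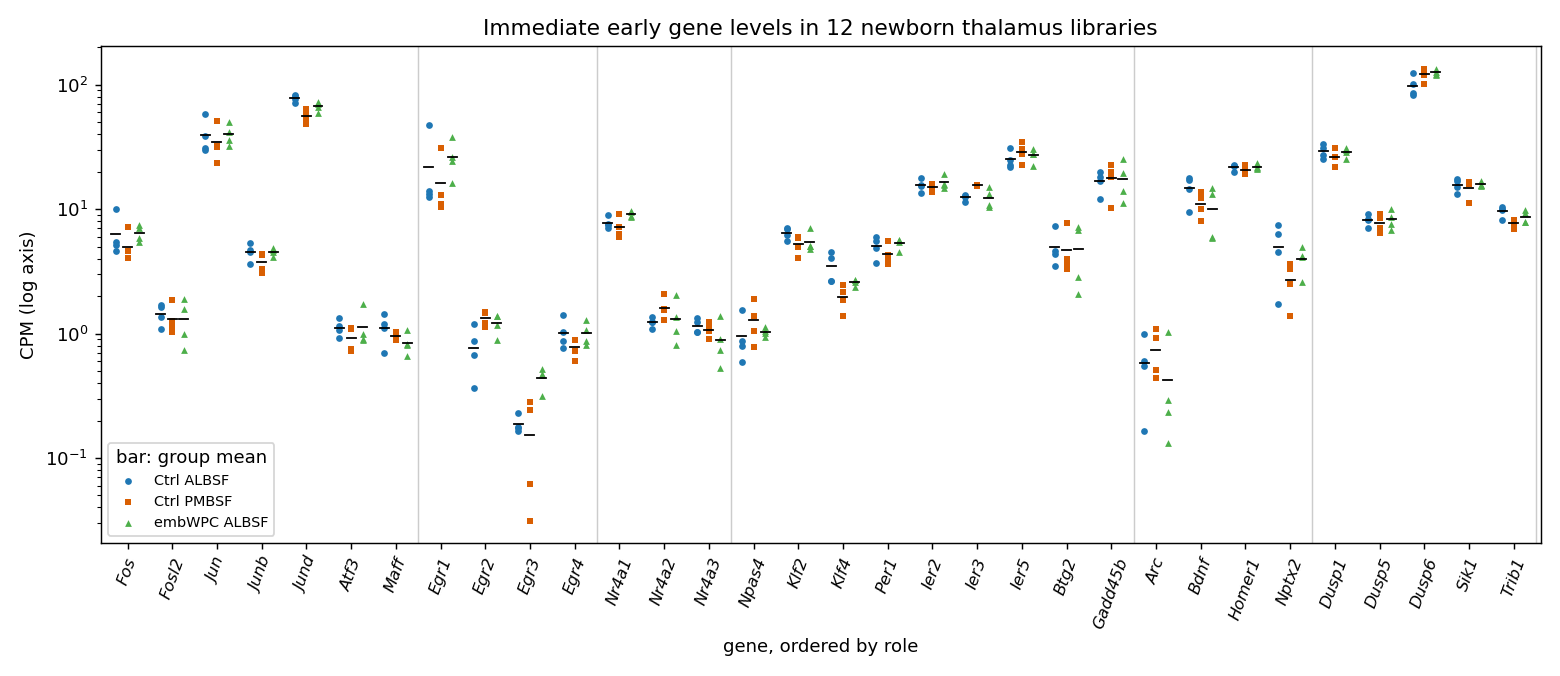
Level of each of the 32 members that passed the count filter, in CPM on a log axis, with 1 point per library, 4 libraries per group and a bar at the group mean. Genes stand in order of role. Dusp6 and Jund stand highest and Egr3 lowest, and for most genes the points of the 3 groups overlap.

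Ctrl PMBSF was set against Ctrl ALBSF to ask what sets the whisker pad territory apart from that of the upper lip at birth. Of the 32 members tested, 1 fell and 0 rose at an adjusted p under 0.05 by edgeR's quasi-likelihood test, where 0.811% of all genes were called in each direction and 1.62% in all. The member was Jund. By unadjusted p under 0.05 there were 7 members, 3 higher and 4 lower, where 6.1% and 5.71% of all genes did so, 11.8% in all. Signs leaned to ALBSF: 24 of the 32 had a lower value in PMBSF, with a median log2 difference of -0.14 against 0.0043 for all genes, whose values were positive for 50.95%. The median size of the difference, whatever its sign, was 0.28 for the members and 0.13 for all genes. The members are more variable than most genes within a group as well, as described later.

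The control libraries are numbered 1 to 4 in each territory, and those with the same number deviated together over genes at 5 CPM or more (r of 0.259 to 0.646). Comparing within these numbers, with the number as a block in the fit of the 8 control libraries, 6 of 31 members were called (Egr3 did not pass the filter there), against 5.04% of all genes. Jund, Nptx2, Bdnf and Klf4 fell, where 2.61% of all genes did, and Dusp6 and Ier3 rose, where 2.43% did. Each of the 6 differed in the same direction in all 4 numbered pairs. In all, 11 of 32 members were lower in PMBSF in all 4 pairs and 4 were higher, where 12.7% and 14.4% of all genes were. With pair 1, 2, 3 or 4 left out, a check chosen after seeing the data, 5, 3, 1 and 2 members were called, and only Jund was called in all 4 of these fits. Of the 17131, 17026, 17030 and 17187 genes tested in them, 979, 536, 378 and 311 were called. The 3 members called without pair 2 included Egr1 (-0.45, adjusted p = 0.0196), which was not among the 6.

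**Figure D2:**
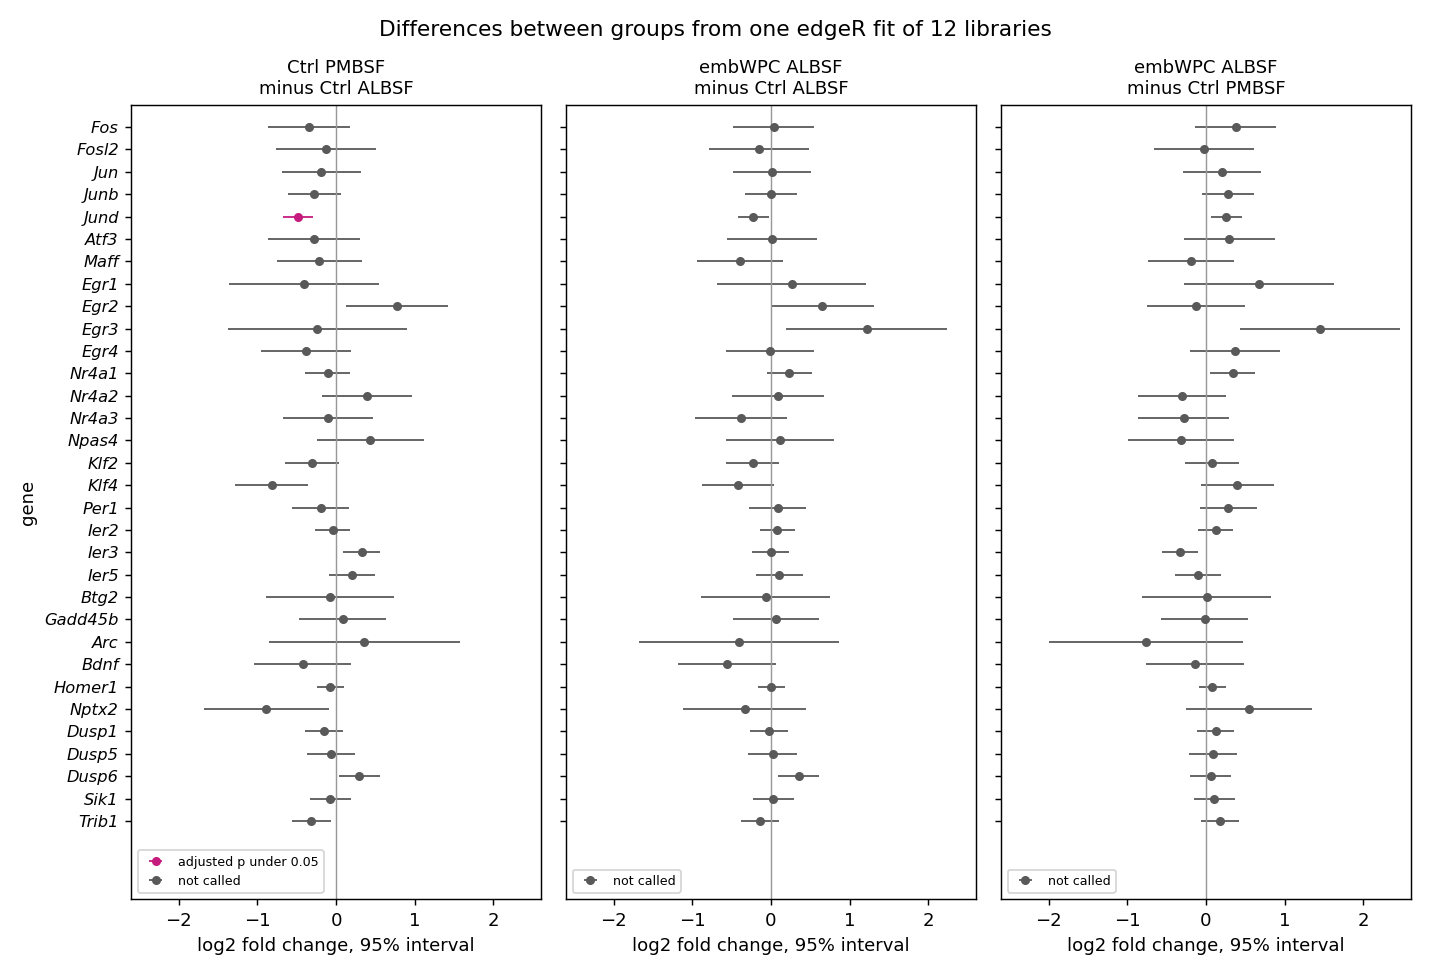
Log2 fold change of each of the 32 members with its 95% interval, for the 3 comparisons, from 1 edgeR fit of the 12 libraries. Jund in the left panel is the only value past an adjusted p of 0.05, at -0.48, and Egr3 lies farthest to the right in the panels that use embWPC ALBSF.

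Fos and Jun pair through leucine zippers to form AP-1, the factor that carries the early response to later genes. Jund (chr8:71151599-71153265, plus strand, GRCm39) is the Jun family member that is made steadily rather than in bursts. It read 77.3, 71.4, 83.3 and 80.8 CPM in Ctrl ALBSF libraries 1 to 4 and 48.5, 57.7, 53.3 and 64.3 in Ctrl PMBSF, so every upper lip library lay above every whisker pad library. It fell by 0.48 ± 0.09 (SE) on the log2 scale, from 78.2 ± 5.1 to 56.0 ± 6.7 CPM (mean ± SD, n = 4), with an adjusted p of 0.0140. With the number as a block the change was -0.49 with an adjusted p of 0.00301. The call was lost without Ctrl ALBSF 3 (adjusted p = 0.0654), without Ctrl ALBSF 4 (0.0526), and without both control libraries numbered 1 (0.0656), and the log2 difference stayed between -0.56 and -0.43 over the 24 alternatives. Jund shares exon bases with Gm11175, a noncoding RNA on the opposite strand, and the strand setting of the counting is not given in the sources used here, so reads of the pair cannot be told apart.

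Jun, the founding member of the family, was uneven, with 57.9 CPM in Ctrl ALBSF 1 and 50.7 in Ctrl PMBSF 1, against 30.0 to 38.7 and 23.5 to 32.4 in the other control libraries. Its log2 difference between territories was -0.19 ± 0.23 (SE). Fos, its classical partner, read 9.96, 5.13, 5.47 and 4.63 CPM in Ctrl ALBSF and 7.13, 4.60, 4.06 and 4.05 in Ctrl PMBSF. Here too library 1 stood above the other 3 in both territories, and the groups overlapped, and PMBSF differed by -0.34 ± 0.24 (adjusted p = 0.647). The remaining bZIP members were low: Junb at 3.08 to 5.31 CPM over the 12 libraries, and Fosl2, Atf3 and Maff at 0.655 to 1.89 CPM. All 7 bZIP members tested had a lower value in PMBSF, with a median of -0.28, and only Jund passed the test. Exons of Junb overlap those of Prdx2 on the opposite strand, so its level is uncertain.

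The Egr genes encode zinc finger factors that bind GC-rich sites. Egr1 (chr18:34992876-34998049) was the most abundant of them and the most uneven: 47.2 CPM in Ctrl ALBSF 1 against 12.4, 13.3 and 14.1 in the other 3, and 31.1 in Ctrl PMBSF 1 against 12.9, 10.3 and 10.9. Its difference between territories was -0.41 ± 0.45 (SE), with an adjusted p of 0.792. Egr2, known for its part in hindbrain segments and in myelinating Schwann cells, was low, at 0.364 to 1.19 CPM in Ctrl ALBSF and 1.12 to 1.49 in Ctrl PMBSF. It was higher in PMBSF in all 4 pairs, by 0.78 ± 0.30 on the log2 scale, and did not pass the test (adjusted p = 0.296; 0.138 with the block). Egr3 had 5 to 7 counts in a Ctrl ALBSF library and 1 to 10 in a Ctrl PMBSF library, and Egr4 lay between 0.597 and 1.41 CPM in the controls. A difference in Egr3 between the territories was not detectable at this depth.

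The Nr4a genes encode orphan nuclear receptors that respond to activity within minutes. Nr4a1 read 7.01 to 8.96 CPM in Ctrl ALBSF and 5.998 to 9.21 in Ctrl PMBSF, and Nr4a2 and Nr4a3 lay between 0.911 and 2.07 CPM in the 8 control libraries. None of the 3 passed the test, and their differences ran from -0.11 to 0.39. Nr4a2 was higher in PMBSF in 3 of 4 pairs.

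Among the other nuclear members, Klf4 (chr4:55527139-55532528, minus strand), a Krüppel-like factor that restrains growth and is strong in vessel walls, read 2.65, 2.64, 4.50 and 4.07 CPM in Ctrl ALBSF and 1.86, 1.38, 2.44 and 2.17 in Ctrl PMBSF. The territories did not overlap, though the gap between them was small. Its difference was -0.82 ± 0.22 (SE), with an adjusted p of 0.0894 in the fit of 12 libraries, 0.0171 with the block, 0.0159 by DESeq2 and 0.0368 by voom. Klf2, a relative expressed in endothelium, was lower in PMBSF in all 4 pairs, at 5.56 to 7.04 against 4.03 to 5.98 CPM (-0.31 ± 0.16, adjusted p = 0.486). The summed level of 11 endothelial and mural markers was 148 to 188 CPM in Ctrl ALBSF and 128 to 193 in Ctrl PMBSF, with 9 of the 11 lower in PMBSF. Of these markers 0 were called by edgeR or voom and 1 was called by DESeq2 (Cspg4, lower). By edgeR 4 had an unadjusted p under 0.05, where 11.8% of all genes did. In the block fit that called Klf4, 2 of these markers were called, Rgs5 and Cspg4, both lower, where 2.61% of all genes were. The part of vessels in the values of Klf4 and Klf2 was not tested.

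Ier3 (chr17:36132568-36133815, plus strand), a small protein that responds to stress and growth factors, moved up. It read 11.3, 13.1, 12.7 and 12.5 CPM in Ctrl ALBSF and 15.6, 15.7, 15.3 and 15.5 in Ctrl PMBSF. The groups did not overlap, and the whisker pad libraries, at 15.5 ± 0.17 CPM (mean ± SD, n = 4), were close together. Its difference was 0.33 ± 0.11 (SE), with an adjusted p of 0.200, or 0.0367 with the block. With Klf4 and Jund below and Ier3 above, 3 members had territories that did not overlap, where 3.62% of all genes lay wholly below and 4.66% wholly above, 8.28% in all. Ier5 was higher in PMBSF in all 4 pairs and overlapped, at 21.9 to 30.8 against 22.8 to 34.7 CPM. Npas4, a factor induced in neurons by calcium entry, read 0.595 to 1.55 and 0.785 to 1.90 CPM and was higher in PMBSF in 3 of 4 pairs. Ier2, Per1, Btg2 and Gadd45b had differences of -0.20 to 0.08 and adjusted p values of 0.728 or more.

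Of the synaptic and secreted members, 4 were tested, 0 were called by edgeR in the fit of 12 libraries, by DESeq2 or by voom, and 1 (Nptx2) had an unadjusted p under 0.05 by edgeR. Nptx2 (chr5:144482692-144500381, plus strand), a pentraxin secreted at excitatory synapses where it gathers AMPA receptors, read 7.44, 6.30, 4.53 and 1.72 CPM in Ctrl ALBSF and 3.62, 3.28, 2.49 and 1.38 in Ctrl PMBSF. The groups overlapped because libraries 1 to 4 differed by more than the territories did, yet each pair fell, and the 4 numbers ranked alike in both territories. Its difference was -0.89 ± 0.37 (SE; adjusted p = 0.347), or -0.83 ± 0.16 with an adjusted p of 0.0104 with the block. Summed markers of inhibitory neurons also varied by library, from 5.95 to 56.1 CPM in Ctrl ALBSF and from 11.5 to 53.2 in Ctrl PMBSF. Library 4 was the lowest in both territories for these markers as for Nptx2, and their part in its values was not tested.

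Bdnf (chr2:109505045-109557475, plus strand), the neurotrophin made on demand by active neurons, read 17.0, 9.53, 17.9 and 14.6 CPM in Ctrl ALBSF and 12.2, 8.01, 13.7 and 10.1 in Ctrl PMBSF. Again library 2 was the lowest and library 3 the highest in both. The difference was -0.43 ± 0.29 (SE; adjusted p = 0.630), or -0.42 ± 0.08 with an adjusted p of 0.0154 with the block. Homer1, the postsynaptic scaffold, lay between 19.0 and 22.7 CPM in all 8 control libraries, and its counts sum the long and the short activity-induced transcripts. Arc, which removes AMPA receptors, read 0.165 to 0.992 CPM in Ctrl ALBSF and 0.440 to 1.09 in Ctrl PMBSF, a range wider than any difference between the groups.

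Among the kinase feedback members, Dusp6 (chr10:99086564-99103361, plus strand), the phosphatase that takes ERK out of action in the cytoplasm, was the highest. It read 124, 81.8, 85.7 and 101 CPM in Ctrl ALBSF and 133, 119, 101 and 130 in Ctrl PMBSF. Each pair was higher in PMBSF and the groups overlapped through Ctrl ALBSF 1. Its difference was 0.30 ± 0.12 (SE; adjusted p = 0.330), or 0.31 ± 0.07 with an adjusted p of 0.0354 with the block. Trib1, a pseudokinase that tunes ERK signalling, was lower in PMBSF in all 4 pairs, at 8.12 to 10.4 against 6.87 to 8.17 CPM (-0.31 ± 0.11; adjusted p = 0.249, or 0.0890 with the block). Dusp1, Dusp5 and Sik1, which act on MAP kinases and on CREB coactivators, had differences of -0.15 to -0.07 and did not pass the test. Exons of Dusp1 overlap Ergic1 on the opposite strand. Dusp6, Ier3, Bdnf, Trib1, Jun, Homer1, Nr4a1 and Btg2 share exon bases with noncoding RNAs on the opposite strand. So do Fosl2, Egr4, Per1, Maff, Dusp5 and Ptgs2, and the limit given for Jund holds for these members too.

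**Figure D3:**
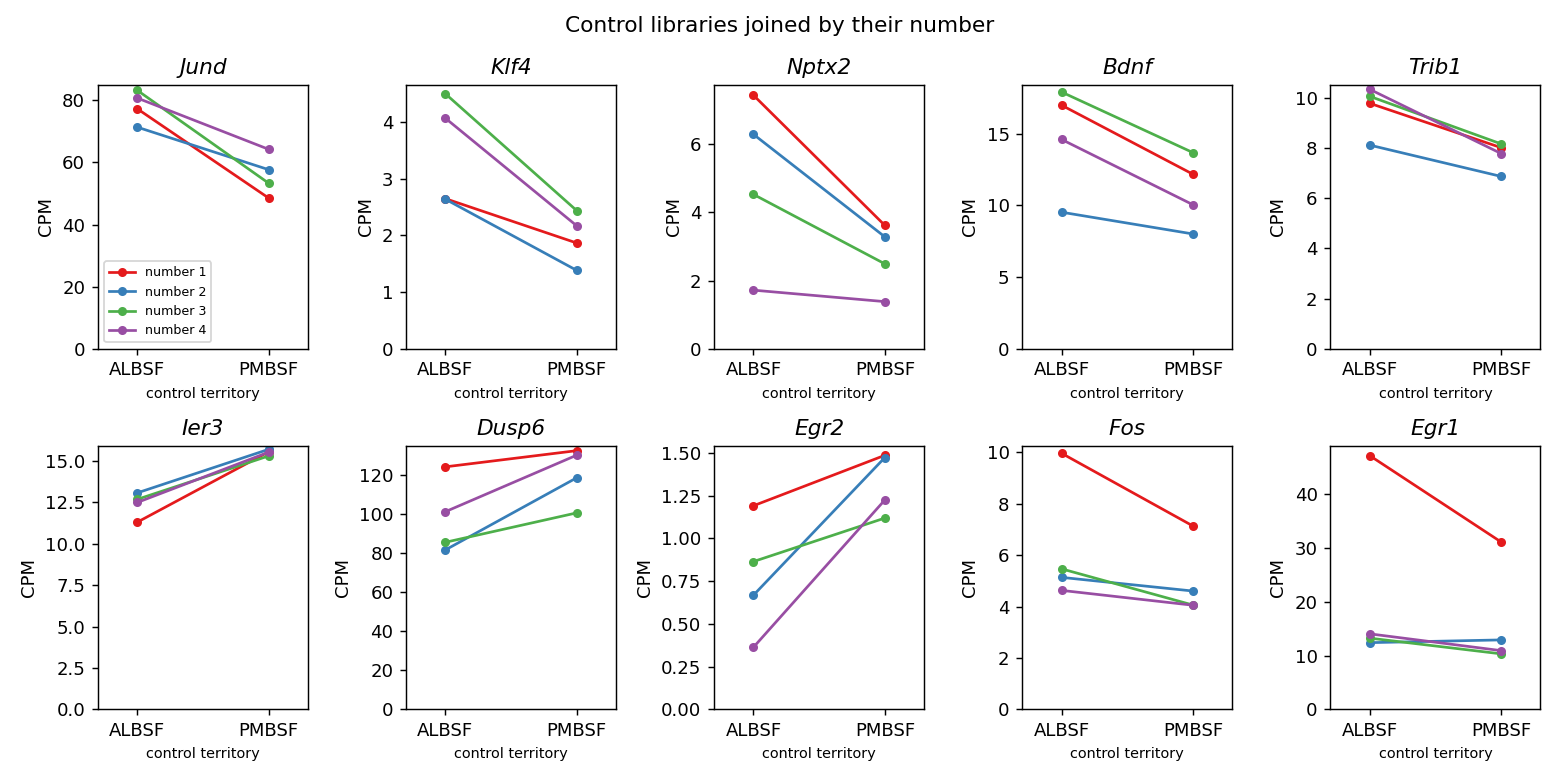
Level in CPM, from 0, of 10 members in the 8 control libraries, with libraries of the same number joined from the upper lip (ALBSF) to the whisker pad (PMBSF) territory. Every line falls for Jund, Klf4, Nptx2, Bdnf, Trib1 and Fos and rises for Ier3, Dusp6 and Egr2, and number 1 stands apart for Fos and Egr1.

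Set against Ctrl ALBSF, embWPC ALBSF shows what differed in the upper lip territory with the treatment. Of the 32 members tested, 0 were called by edgeR, against 0.0629% of all genes, and DESeq2 and voom also called 0. By unadjusted p under 0.05 there were 3, against 9.22% of all genes. Values were higher in 18 and lower in 14, with a median of 0.0092 against -0.011 for all genes, and the median size of the difference was 0.11 against 0.13. The 3 were Egr3, Dusp6 and Jund. The numbers of the treated libraries did not pair with those of the controls, so the block enters their comparisons only as an alternative setting.

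Egr3 (chr14:70314350-70320063, plus strand) read 0.232, 0.176, 0.173 and 0.165 CPM in Ctrl ALBSF and 0.470, 0.517, 0.463 and 0.314 in embWPC ALBSF. The groups did not overlap, as for 5.74% of all genes, but these values stand on 5 to 7 and 12 to 16 counts a library. The difference was 1.22 ± 0.48 (SE), with edgeR's p at 0.0229 before adjustment and its adjusted p at 0.462, and lay between 1.13 and 1.36 over 19 alternatives. Egr1 was 37.7, 24.5, 26.3 and 16.1 CPM in embWPC ALBSF. These 4 values lay above 3 of the 4 Ctrl ALBSF libraries and below Ctrl ALBSF 1, and the difference was 0.26 ± 0.44 (adjusted p = 0.875). Egr2 was 0.894 to 1.39 CPM, 0.65 ± 0.31 above Ctrl ALBSF with an adjusted p of 0.540.

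Dusp6 was 135, 119, 127 and 122 CPM in embWPC ALBSF, all above 3 of the 4 Ctrl ALBSF libraries, by 0.35 ± 0.12 (SE) on the log2 scale with an adjusted p of 0.368. Jund was 73.0, 58.9, 69.6 and 66.6 CPM, by -0.22 ± 0.09 under Ctrl ALBSF with an adjusted p of 0.486. Fos was 7.08, 7.46, 5.46 and 5.87 CPM, and its difference of 0.04 ± 0.24 had a 95% interval from -0.48 to 0.55. Bdnf was split, with 5.94, 13.2, 5.86 and 14.9 CPM in libraries 1 to 4, and a difference of -0.56 ± 0.29 (adjusted p = 0.584). Arc was 0.132 to 0.291 CPM in 3 libraries and 1.02 in embWPC ALBSF 4. Homer1, with 21.0 to 23.3 CPM, had the narrowest interval of the members, from -0.17 to 0.18.

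The third comparison set embWPC ALBSF against Ctrl PMBSF. It shares its libraries with the other comparisons, so the values are given side by side and no agreement between them is counted. Again 0 members were called by edgeR, DESeq2 and voom, against 0.00571% of all genes by edgeR, and 4 had an unadjusted p under 0.05 against 9.47%. Egr3 was 1.45 ± 0.48 (SE) higher in embWPC ALBSF, over 0.0314 to 0.280 CPM in Ctrl PMBSF, with an adjusted p of 0.389. Ier3 was 0.33 ± 0.11 lower (adjusted p = 0.389), at 10.5 to 14.9 CPM against 15.3 to 15.7, and Egr3 and Ier3 were the members whose groups did not overlap, against 4.73% of all genes. Jund was 0.26 ± 0.09 higher (adjusted p = 0.413) and Nr4a1, at 8.66 to 9.64 CPM, was 0.34 ± 0.13 higher (adjusted p = 0.465). In group means, Jund thus read 78.2 in Ctrl ALBSF, 67.0 in embWPC ALBSF and 56.0 CPM in Ctrl PMBSF, and only the outer values differed past the threshold. For Dusp6 the means were 98.3, 126 and 121 CPM, and no pair of groups differed past it in the fit of 12 libraries.

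Genes around the members were read from 4 lists, which were also chosen with earlier results of these data known. The relay from activity to transcription, 42 genes such as Creb1, Srf and Camk4, had 1 gene called between the control territories, where 1.62% of all genes were: Rps6ka2, an RSK kinase downstream of ERK, rose by 0.93 ± 0.13 (SE), from 12.02 to 22.9 CPM (adjusted p = 0.00253). In embWPC ALBSF it was 20.3 CPM, 0.76 ± 0.13 above Ctrl ALBSF with an adjusted p of 0.0648. Of 41 other early and late response genes tested, 1 rose and 2 fell, where 0.811% of all genes did in each direction. By DESeq2 and by voom 1 rose and 4 fell, with Scg2 and Pcsk1 added, and with the block 1 rose and 5 fell, with Myc added as well. Over all genes, DESeq2 called 510 of 17018 and voom 443 of 17501, and the block fit called 2.43% higher and 2.61% lower. Gadd45g, a relative of Gadd45b, rose by 1.10 ± 0.22 (adjusted p = 0.0193). Inhba, a subunit of activin that neurons make late after activity, fell by 2.64 ± 0.39, from 9.31 to 1.48 CPM (adjusted p = 0.00318), and Csrnp1, at 0.422 to 0.519 against 0.108 to 0.215 CPM, fell by 1.58 ± 0.33 (adjusted p = 0.0245). The call of Gadd45g was lost without Ctrl ALBSF 3 (adjusted p = 0.0839), Ctrl ALBSF 4 (0.0680) or Ctrl PMBSF 2 (0.0535). That of Csrnp1 was lost without Ctrl ALBSF 2 (0.0565), 3 (0.0961) or 4 (0.0785), or without Ctrl PMBSF 1 (0.0750), 3 (0.0668) or 4 (0.0639). Both calls were also lost without both control libraries numbered 1 (0.0858 for Gadd45g and 0.102 for Csrnp1).

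Of 13 genes of ERK feedback tested, 1 rose and 1 fell between the control territories, where 0.811% of all genes did in each direction. With the block a further 1, Dusp7, fell, where 2.61% of all genes were called lower. Dusp4, a nuclear ERK phosphatase, rose by 1.00 ± 0.16 (SE), from 8.74 to 17.5 CPM (adjusted p = 0.00555), and Etv1, an ETS factor downstream of ERK, fell by 0.74 ± 0.14 (adjusted p = 0.0151). The whole list leaned down, with 11 of 13 lower and a median of -0.24, while Dusp4, like Dusp6, lay higher. Of 13 genes listed for heat shock and handling, 0 were called by edgeR, DESeq2 or voom and 0 had an unadjusted p under 0.05 by edgeR. How far each of them follows handling was not tested. Hsp90ab1, abundant at 1593 CPM in Ctrl ALBSF and 1348 in Ctrl PMBSF, had the smallest p, with -0.24 ± 0.12 (adjusted p = 0.481). In embWPC ALBSF against Ctrl ALBSF or Ctrl PMBSF, 0 genes of the 4 lists were called by edgeR. By unadjusted p under 0.05 there were 1, 8, 3 and 2 genes of the relay, other response, ERK and heat shock lists against Ctrl ALBSF (9.22% of all genes), and 4, 9, 4 and 1 against Ctrl PMBSF (9.47% of all genes). These lists had 42, 41, 13 and 13 genes tested. Both DESeq2 and voom called Rps6ka2 and Dusp4 as higher and Etv1 as lower against Ctrl ALBSF, and 0 genes of the lists against Ctrl PMBSF. Over all genes against Ctrl ALBSF, DESeq2 called 170 of 17018 and voom 75 of 17501. The nearest to the threshold of edgeR's test against Ctrl ALBSF were Rps6ka2 and Dusp4 (0.86 ± 0.16, adjusted p = 0.0707). Inhba was 1.34 ± 0.37 lower (adjusted p = 0.210) and the heat shock gene Hspa1b 0.39 ± 0.15 lower (adjusted p = 0.428) than in Ctrl ALBSF. Against Ctrl PMBSF, Csrnp1 was 1.67 ± 0.32 higher (adjusted p = 0.241), and Dusp7 and Crtc1 were 0.29 ± 0.08 and 0.18 ± 0.06 higher (adjusted p of 0.326 and 0.347). Hspa1b was 0.43 ± 0.15 lower there (adjusted p = 0.407). In that comparison the groups did not overlap for Csrnp1, Dusp7, Crtc1 or Hspa1b, as for 4.73% of all genes.

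Within a group, the members did not move as a block. Over the 496 pairs of members, after each group's mean log2 CPM was subtracted, the median correlation was 0.02, with quartiles of -0.29 and 0.33, and over all pairs of genes tested it was -0.0015. A correlation above 0.5 was reached by 13.1% of member pairs and 9.99% of all pairs. The points are 12 libraries that share depth and pool, and the control libraries of one number are not independent of each other. The number of members above the group mean ran from 10 of 32 in Ctrl PMBSF 4 and embWPC ALBSF 4 to 22 of 32 in Ctrl ALBSF 3, and it was 15 of 32 in both control libraries numbered 1.

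A smaller set did rise and fall with the control numbers. In both territories, library 1 had the highest level of Fos, Jun, Maff, Egr1, Egr2, Ier2, Nptx2, Dusp1 and Dusp6, which is 9 of 32 members, where 15.3% of all genes did so. In both it also had the lowest level of Fosl2, Klf2, Per1, Ier5, Gadd45b, Dusp5 and Sik1, which is 7 of 32 against 13.8%. The other numbers had such members too. Numbers 2, 3 and 4 were highest in both territories for 5, 6 and 1 members, where 7.54%, 7.55% and 9.62% of all genes were so, and lowest for 5, 1 and 7, where 7.77%, 5.87% and 10.2% were. The 7 lowest in number 4 were Fos, Atf3, Egr3, Npas4, Ier2, Arc and Nptx2. Gadd45b, which acts in DNA repair and demethylation, read 12.04 against 16.9 to 20.03 CPM in Ctrl ALBSF and 10.2 against 18.0 to 22.7 in Ctrl PMBSF. Sik1, the kinase that holds back CREB coactivators, read 13.1 against 15.1 to 17.4 and 11.2 against 15.8 to 16.5 CPM. The high genes thus include those with promoters shown above (Fos, Egr2, Dusp1 and Dusp6), and the low ones include Gadd45b. The promoters shown do not stand for the rest of these genes. Of the low genes, Dusp5 held CArG boxes and a core, Klf2 and Per1 held cores, and Fosl2 and Ier5 held neither. Of the high genes, Maff held cores and Jun held none of the letters searched.

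Other measures had the libraries numbered 1 at an end of both control groups as well, and some had those numbered 2 or 4 there. Their mitochondrial share was the lowest of each control group (2.32% and 1.72%), as were their summed markers of astrocytes and radial glia (7721 and 6236 CPM), and their summed markers of microglia and macrophages were the highest (83.4 and 103 CPM). Their summed erythroid markers were the lowest too (847 and 744 CPM). Their summed heat shock genes, at 7046 and 6560 CPM, lay within the range of the other libraries of each group. The libraries numbered 2 had the highest mitochondrial share (3.40% and 3.45%) and summed erythroid markers (1332 and 1047 CPM). Those numbered 4 had the lowest summed markers of microglia and macrophages (50.4 and 42.9 CPM) and of endothelial and mural cells (148 and 128 CPM). What part these measures had in the levels of Fos and Egr1 was not tested. Pool, litter and dissection session cannot be told apart from the number.

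**Figure D4:**
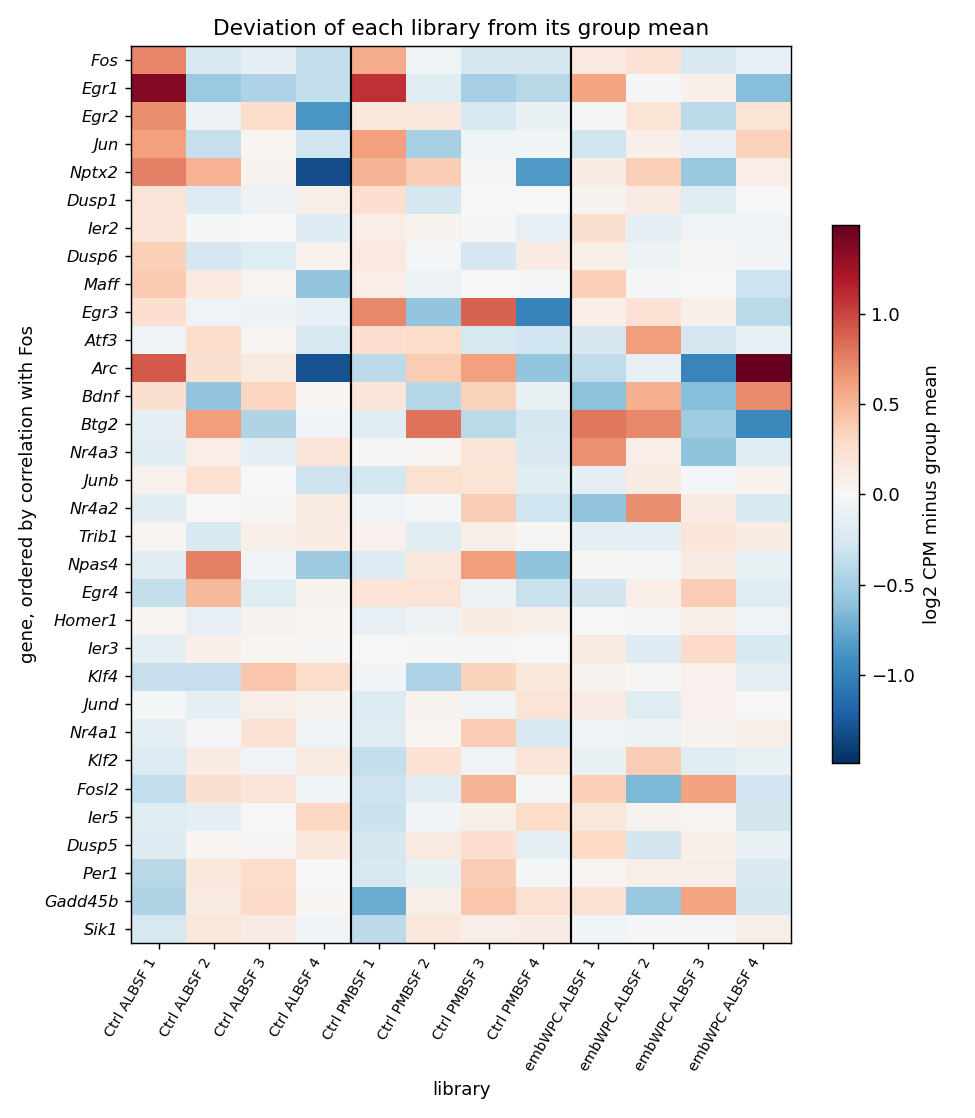
Deviation of each library from its group's mean, in log2 CPM, for the 32 members in order of their correlation with Fos, with black lines between the groups. Red is above and blue below the mean. In the columns of Ctrl ALBSF 1 and Ctrl PMBSF 1 the upper rows, from Fos to Dusp6, are red and the lowest rows, down to Gadd45b and Sik1, are blue.

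Fos was set against each of the 31 other members, in deviations from the group mean over 12 libraries. After adjustment over the 31, 0 passed, and for r 7 had an unadjusted p under 0.05 by the two-sided exact permutation test within groups. By r, Egr1 followed Fos most closely, with r = 0.91 and rho = 0.60 (exact permutation p of 0.0178 and 0.0579, adjusted 0.175 and 0.254). When the control libraries of one number were permuted together, a test chosen after seeing the data, the p for r was 0.0729. Without Ctrl ALBSF 1 and Ctrl PMBSF 1, the libraries farthest from the median of Fos, r was 0.62. Egr2 had r = 0.73 and rho = 0.80, and r = 0.65 without those libraries. By rho, Nptx2 was the closest, with rho = 0.82 (exact permutation p of 0.00774, adjusted 0.120) and r = 0.69, or r = 0.62 without them. For Jun (r = 0.72, rho = 0.47) and Dusp1 (r = 0.67, rho = 0.46), r was 0.11 and 0.26 without them, so these relations rest on the libraries numbered 1. On the opposite side, Sik1 had r = -0.80 and rho = -0.48, and Gadd45b r = -0.75 and rho = -0.65, with r = -0.28 and -0.53 without them. Arc, Junb and Npas4, often read together with Fos, had r = 0.26, -0.088 and -0.15.

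The members varied more between libraries of one group than most genes did. The median SD of log2 CPM within groups was 0.31 for the 32 members and 0.21 for all genes tested. Low counts widen this, so it was also read at a mean of 5 CPM or more, where the median of 17 members was 0.20, that of 10592 genes was 0.14, and 15 of the 17 lay above that of all genes. Egr1 had an SD of 0.74, wider than 99.5% of the 10592 genes at 5 CPM or more. Bdnf (0.52), Gadd45b (0.46), Jun (0.40) and Fos (0.38) followed, while Ier2 (0.14), Jund (0.14) and Homer1 (0.09) were the steadiest of the 17 members. Below 5 CPM, Arc (0.88), Nptx2 (0.68) and Btg2 (0.65) were widest. Btg2, an antiproliferative gene of dividing progenitors, was highest in library 2 of both territories, at 7.35 and 7.80 CPM against 3.33 to 4.63 in the other control libraries, and in embWPC ALBSF it was 7.18, 6.85, 2.85 and 2.10.

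**Figure D5:**
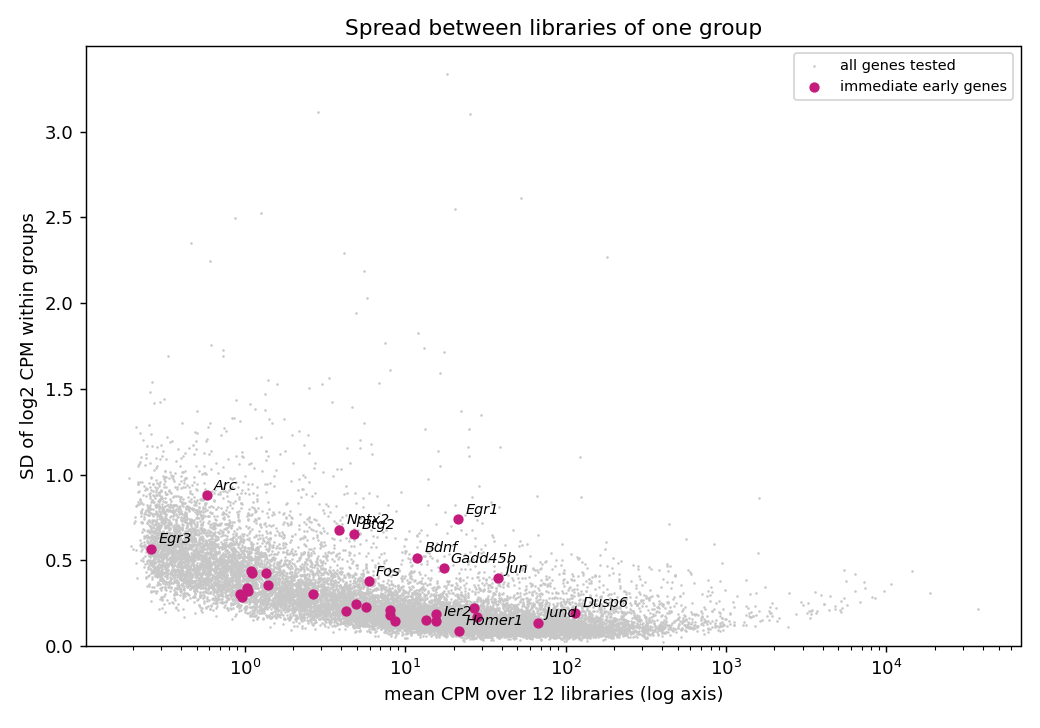
SD of log2 CPM within groups against the mean CPM over 12 libraries on a log axis, with every gene tested in grey and the 32 members in colour. Egr1, Bdnf, Gadd45b and Jun lie above the band of genes of like level, and Homer1, at an SD of 0.09, lies in its lower part.

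The genes whose pattern was most like the mean of the members' scaled deviations, among 10092 other genes with a mean of at least 5 CPM, were Gckr (r = 0.88), Zfc3h1 (0.87), Adam11 (0.87), Srr (0.86), Slc30a5 (0.82) and Pdzd8 (0.82) over 12 libraries. They are the highest of many values, and the mean they follow rests on members whose median correlation with each other was 0.02.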

How the data were processed

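RNA-seq of 12 pooled mouse samples was analysed, 4 libraries in each of 3 groups. The values are raw gene counts as deposited by the authors, 1 file per library. FastQC 0.11.9, STAR 2.7.9a, SAMtools 1.15, featureCounts of Subread 2.0.1 and DESeq2 1.32 are named in the submitters' processing notes. Those notes name the builds GRCm39 and mm10, and the strand, pairing and multimapping settings of the counting are not given in the sources used here. Counts of overlapping or near-identical genes can therefore be shared or lost. Gene symbols, positions and lengths came from GENCODE M39 (GRCm39), which gave a symbol to 54742 of the 55359 identifiers, and 216 of the 217 listed symbols were found.

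Counts were filtered with filterByExpr (17501 genes kept), scaled by TMM and fitted over all 12 libraries by group with edgeR 4.0.16 (R 4.3.3, quasi-likelihood test, residual df 9 from the samples, biological coefficient of variation 15.8%), with Benjamini-Hochberg adjustment over all genes tested. A gene is called at an adjusted p under 0.05. CPM values use TMM library sizes, and log2 CPM a prior count of 2. Intervals cover 95%. DESeq2 1.42.0, voom (limma 3.58.1), RLE scaling, other count filters, fits of 8 libraries, a replicate block and leaving out each library were alternatives. A p-value of these fits sets a difference between groups against the spread between pools, estimated over the groups fitted together. With the block, that spread is what is left after the numbers are taken out.

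The replicate number was checked by the correlation of same-numbered libraries' deviations from their group means, over genes at 5 CPM or more. It was 0.527, 0.259, 0.406 and 0.646 between the control territories, which were taken as paired. For embWPC ALBSF it was -0.238, 0.072, 0.070 and -0.219 with Ctrl ALBSF and 0.047, 0.037, -0.082 and -0.183 with Ctrl PMBSF, which were not. Libraries of unlike number had correlations of -0.361 to 0.131 between the control territories. Between embWPC ALBSF and the control groups those ran from -0.306 to 0.395, so the top one exceeded that of control pair 2. Named are all 34 members. From each of 4 lists of related genes, up to 4 called genes of each comparison by smallest p are named, or else the gene with the smallest p, and 6 other genes with the pattern most like the members. The members and lists were chosen with earlier results of these data known. Promoter sequences are from RefSeq (GRCm38.p6), and none of their coordinates were set against those of the counts.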

Additional observations from a re-analysis of the deposited data

Results flagged for a closer look

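In 10 of 96 sets of 4 libraries (32 members in 3 groups), the highest or lowest library lay apart from the other 3, with a gap to its neighbour over 0.829 of the set's range. By chance about 1 in 20 sets would. For 4 of them the library was a control library numbered 1 that was the highest: Fos in Ctrl ALBSF 1 at 9.96 CPM (4.63 to 5.47 in the others), Egr1 in Ctrl ALBSF 1 at 47.2 (12.4 to 14.1), Egr1 in Ctrl PMBSF 1 at 31.1 (10.3 to 12.9), and Egr3 in Ctrl ALBSF 1 at 0.232 (0.165 to 0.176). The Egr3 values stand on 7 counts against 5 in each of the others. Sik1 was lowest in Ctrl PMBSF 1, at 11.2 CPM (15.8 to 16.5). Btg2 was highest in Ctrl PMBSF 2, at 7.80 CPM (3.33 to 3.94), and Homer1 was lowest in Ctrl ALBSF 2, at 20.04 (22.3 to 22.7). In embWPC ALBSF, library 2 was highest for Atf3, at 1.71 CPM (0.894 to 0.996), and for Klf2, at 7.01 (4.77 to 5.07), and library 4 was lowest for Per1, at 4.56 (5.47 to 5.65).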

How the results depend on the processing

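Between the control territories, 284 genes were called, against 510 by DESeq2, 443 by voom, 857 with the replicate block, and 979 and 536 with the block when pair 1 or pair 2 was left out. Leaving out 1 library gave 127 to 282, with fewer than 190 without Ctrl ALBSF 2, 3 or 4 or Ctrl PMBSF 2 (160, 127, 155 and 163). Of the members 1 was called (Jund), against 2 by DESeq2 and by voom (with Klf4), 6 with the block, 5, 3 and 2 with the block when pair 1, 2 or 4 was left out, and 0 without both control libraries numbered 1. Leaving out 1 library gave 0 to 1, and Jund was lost without Ctrl ALBSF 3 or 4. With all 4 pairs, the block changed the calls of Klf4, Ier3, Bdnf, Nptx2 and Dusp6 and of no other member. Without pair 2 it also called Egr1.

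For embWPC ALBSF against Ctrl ALBSF, 11 genes were called, against 121 with no count filter, 5 at 1 CPM or more in 4 libraries, 170 by DESeq2, 75 by voom, 1 with the replicate block and 50 without both control libraries numbered 1. Leaving out 1 library gave 1 to 37. Counts over 1.5 times away were 22, 4, 1 and 3 without Ctrl ALBSF 1 to 4, 37 and 4 without Ctrl PMBSF 1 and 4, and 2 and 1 without embWPC ALBSF 1 and 3. Against Ctrl PMBSF, 1 gene was called, against 72 with no count filter, 70 by DESeq2, 0 with the replicate block and 2 without both control libraries numbered 1, and leaving out 1 library gave 1 to 3 (2 without Ctrl ALBSF 2 and 3 without Ctrl PMBSF 1). Every setting called 0 members in both. The cause of these shifts was not tested.

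The median correlation between members was -0.011 to 0.026 and their median SD 0.28 to 0.32 when 1 library was left out. Settings that leave out both libraries numbered 1 or a pair were chosen after seeing the data. Depth limits Egr3 and Arc, where small changes were not detectable.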
